A study of Homo sapiens with 8 samples.

Results

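A set of noncoding genes that carry small nucleolar RNAs (snoRNAs) in their introns is described here across RNA sequencing libraries of DLD1, a cell line from a human colorectal cancer. The 10 genes, GAS5, SNHG1, SNHG5, SNHG6, SNHG7, SNHG8, SNHG12, SNHG15, SNHG16 and ZFAS1, were taken by name from the 58302 genes of the count table. All 10 were in the table and passed the filter on low counts, which 14133 genes passed. OE-WT cells stably carried lentiviral wild-type TRMT6/TRMT61A, the subunits of the tRNA m1A methyltransferase, and CTRL cells carried the empty vector, with 2 libraries per group. The design text names TRMT6 and TRMT61A overexpression as separate groups, whereas the sample labels name a combined one. Whether either line came from a single clone is not given in the sources used here, and cells with catalytically inactive enzyme were not analysed here.

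snoRNAs guide chemical modification of ribosomal RNA. Those of the box C/D class direct ribose methylation and those of the box H/ACA class direct pseudouridylation, each in a complex with its own set of core proteins. In human cells most are cut out of the introns of a host gene after splicing. The spliced exons of a noncoding host hold no long open reading frame, and several such RNAs are bound by ribosomes and degraded by nonsense-mediated decay, which depends on translation. Many hosts start, like ribosomal protein genes, with a C followed by a run of pyrimidines, the 5′ terminal oligopyrimidine (TOP) motif. GAS5 takes its name from growth arrest, during which its spliced RNA accumulates. Reads from poly(A)-selected RNA measure mainly the host RNA, not the snoRNAs inside it. Counts per gene do not separate spliced from unspliced host RNA. For SNHG1, the exons of all annotated transcripts together cover the whole gene, 3976 bases.

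The 10 genes differ in what they carry. RefSeq places 37 snoRNA genes inside them on GRCh38.p14, 28 of box C/D and 8 of box H/ACA, and 35 of the 37 lie in introns of the canonical GENCODE transcript. GAS5 holds 11 and SNHG1 holds 9, nearly all of box C/D. SNHG12 holds 4, of which 3 are box H/ACA, and SNHG16 and ZFAS1 hold 3 box C/D snoRNAs each. SNHG5 holds 2 of box C/D, SNHG7 holds 2 of box H/ACA, and SNHG6, SNHG8 and SNHG15 hold 1 each. SNORA9 of SNHG15 lies in an exon of the canonical transcript. The first snoRNA of each of the 3 hosts that were lower in OE-WT under every alternative is shown to make plain what the introns contain. Capitals mark a box C match (TGATGA) near the 5′ end and the last box D match (CTGA). They lie at chr1:173867674-173867745 (minus strand), chr11:62855565-62855631 (minus strand) and chr20:49278945-49279023 (plus strand), with positions from RefSeq and the strand of the host.
SNORD74 in GAS5: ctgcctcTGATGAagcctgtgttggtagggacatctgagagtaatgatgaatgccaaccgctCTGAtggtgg
SNORD25 in SNHG1: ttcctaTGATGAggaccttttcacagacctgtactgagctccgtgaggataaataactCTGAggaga
SNORD12C in ZFAS1: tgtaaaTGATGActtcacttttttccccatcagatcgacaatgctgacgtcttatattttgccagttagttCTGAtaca

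**Figure D1:**
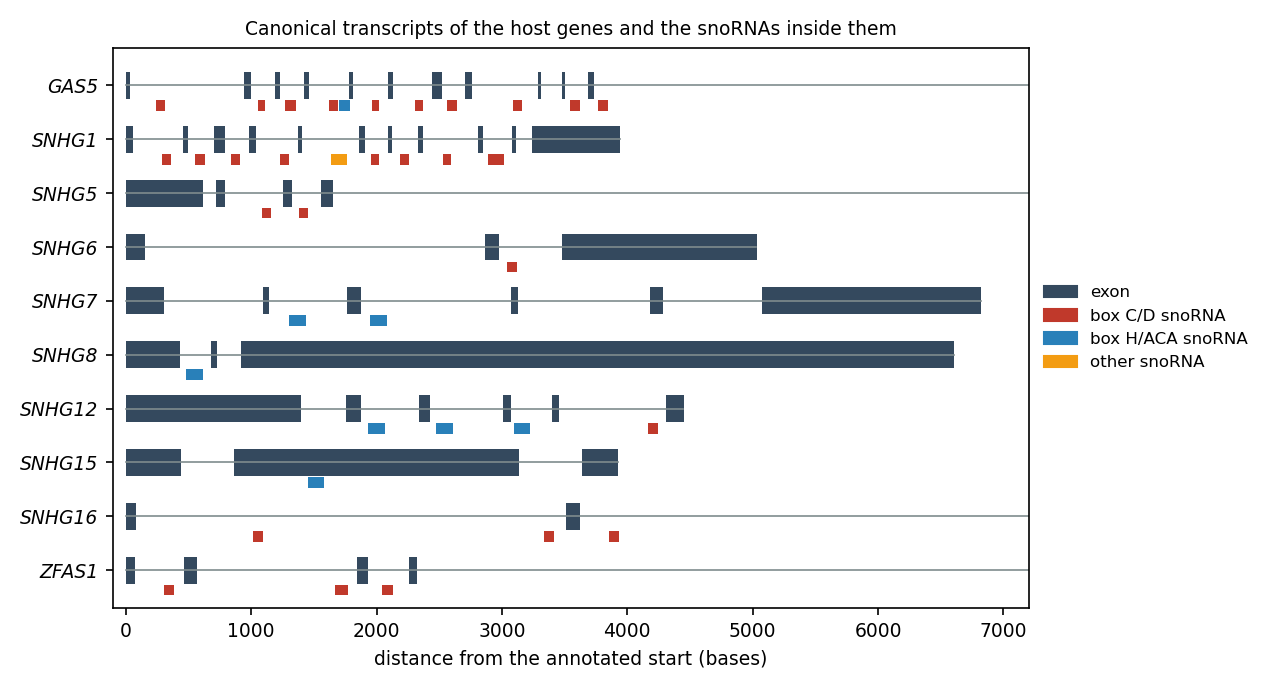
Map of the canonical transcript of each host gene, with distance in bases from its annotated start on the x axis. Dark blocks are exons and the small blocks below each line are snoRNAs by class; lines that reach the right edge continue beyond the 7200 bases drawn, and GAS5 and SNHG1 hold the most snoRNAs, with 11 and 9.

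Starts were read from the GRCh38 genome, from 10 bases before the annotated canonical start through the first 20 bases of the transcript. The motif searched on the gene's own strand was a C followed by at least 4 bases that are each C or T, with the C within 10 bases of the annotated start. Capitals mark the match. The starts of the 3 hosts that were lower under every alternative are shown with those of SNHG8, SNHG15 and SNHG16, which were not called. The windows are chr1:173867970-173867999 (minus strand) for GAS5, chr20:49278632-49278661 (plus strand) for ZFAS1, chr11:62855903-62855932 (minus strand) for SNHG1, chr17:76557765-76557794 (plus strand) for SNHG16, chr4:118278698-118278727 (plus strand) for SNHG8 and chr7:44986942-44986971 (minus strand) for SNHG15.
GAS5: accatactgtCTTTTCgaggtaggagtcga
ZFAS1: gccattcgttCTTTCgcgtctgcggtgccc
SNHG1: gggCCTCTgcggcatggtatttaatcgtct
SNHG16: cgttCTTTTCgaggtcggccgcgtggctgg
SNHG8: gcgCTTCCCCCggaatagcgtcatcagttc
SNHG15: aggcaccacccattaggggctcagcgcgtc

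In GAS5, ZFAS1 and SNHG12 the run begins at the annotated first base. In SNHG16 it begins 6 bases upstream, and in SNHG1 and SNHG8 7 bases upstream. SNHG7 has a run 10 bases upstream. The runs of SNHG1, SNHG7 and SNHG16 end before the annotated first base. SNHG5, SNHG6 and SNHG15 have no match whose C lies within 10 bases of the start, though the SNHG5 window ends in such a run farther in. In all, 7 of the 10 windows held a match, against 75 of 79 ribosomal protein genes (94.9%), 6 of 18 other noncoding hosts (33.3%) and 32.9% of the 14051 tested genes with an annotated start. A match is a description of the annotated start and not evidence of TOP regulation.

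Total counts on genes lay between 10327498 and 12379671 per library. Levels are given as CPM, the count scaled to the size of its library, and 0 counts still leave room for up to 3, or 0.242 to 0.290 CPM, a limit of counting error only. TRMT6 was at 211 and 181 CPM in OE-WT and at 52.6 and 55.4 CPM in CTRL, so the labels match the overexpressed gene. TRMT61A was at 138 and 130 CPM against 58.9 and 56.8 CPM. Colorectal epithelial markers had a summed level of 10115 to 11770 CPM, while markers of other cell types summed to 5.99 to 9.56 CPM. KRT8 (4973 to 6109 CPM) and KRT18 (3071 to 3932 CPM) gave most of the epithelial sum. EPCAM was at 461 to 545 CPM and CDX2 at 95.5 to 115 CPM. KRT20 was at 8.36 to 27.1 CPM, VIL1 at 2.80 to 4.53 CPM, and CDX1 had 0 or 1 count per library. EPCAM, CDX2, VIL1 and CDX1 were named after their values were seen. Mitochondrially encoded genes took 33.5% and 29.9% of the OE-WT counts and 25.1% and 27.7% of the CTRL counts, and their part in the results below was not tested. In bulk RNA, fewer cells with a transcript and less of it per cell cannot be told apart.

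The RNA of 5 of the 10 hosts, ZFAS1, SNHG7, SNHG1, GAS5 and SNHG12, was lower in OE-WT cells, and none was called higher. Of these, SNHG12 fell by 24.0% and ZFAS1 fell by 30.7%, with the other 3 between them. Calls rest on an adjusted p below 0.05 from edgeR's quasi-likelihood test, adjusted over all 14133 genes tested, of which 11.6% were called lower and 9.44% higher. DESeq2 called 3 lower and 0 higher, where over all 14133 genes it called 855 lower and 522 higher. At an unadjusted p below 0.05 edgeR gave 6 lower and 0 higher. The share of all genes at that unadjusted threshold is not given here. Among the 1781 long noncoding RNA genes tested, 5.28% were called lower. The median log2 fold change (OE-WT over CTRL) of the 10 hosts was -0.29, against 0.01 over all genes tested. The libraries did not overlap, with OE-WT lower, for 8 hosts (background 30.2% of genes tested), and with OE-WT higher for 1 host (background 29.9%). None of the hosts passed the study's own thresholds, an unadjusted p below 0.05 with an absolute log2 fold change above 1, which 3.15% of genes passed.

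GAS5 (ENSG00000234741, chromosome 1, 173858559 to 173868882, minus strand), which holds more snoRNAs than any other of the 10, had 121 and 118 CPM in OE-WT and 169.5 and 155 CPM in CTRL. It was lower in each OE-WT library than in either CTRL library. Its log2 fold change was -0.44 (SE 0.07, adjusted p = 8.3e-05, edgeR), so it fell by 26.3%. SNHG1 (ENSG00000255717, chromosome 11, 62851978 to 62855953, minus strand), host of SNORD25 to SNORD31, had 75.4 and 75.1 CPM in OE-WT and 103 CPM in each CTRL library. The libraries of each group lay almost on top of each other, and the groups were well apart. SNHG1 fell by 27.1%, a log2 fold change of -0.46 (SE 0.07, adjusted p = 6.1e-05, edgeR).

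ZFAS1 (ENSG00000177410, chromosome 20, 49278178 to 49299600, plus strand), host of the SNORD12 group, had 32.6 and 30.3 CPM in OE-WT and 47.9 and 42.8 CPM in CTRL. The groups did not overlap, with a log2 fold change of -0.53 (SE 0.09, adjusted p = 0.00028, edgeR). These 3 genes, GAS5, SNHG1 and ZFAS1, were called lower under all 11 alternative settings. SNHG7 (ENSG00000233016, chromosome 9, 136721366 to 136728184, minus strand), host of SNORA17A and SNORA17B, rests on few reads, with 124 and 150 counts in OE-WT against 239 and 248 in CTRL. In CPM these were 12.5 and 14.7 against 18.6 and 20.1, without overlap, and the log2 fold change was -0.51 (SE 0.13, adjusted p = 0.0084, edgeR). SNHG7 was not called without OE-WT replicate 1 (-0.39, adjusted p = 0.0887, edgeR), by DESeq2 (adjusted p = 0.0709) or with the GC trend removed (-0.30, adjusted p = 0.107, edgeR). Its canonical transcript has a GC content of 65.9%, the highest of the 10.

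SNHG12 (ENSG00000197989, chromosome 1, 28578538 to 28583132, minus strand), which carries 3 H/ACA snoRNAs and SNORD99, had 17.5 and 16.2 CPM in OE-WT and 23.2 and 21.1 CPM in CTRL. Every OE-WT value was below every CTRL value, and the log2 fold change was -0.40 (SE 0.12, adjusted p = 0.0204, edgeR). The call was lost without OE-WT replicate 2 (adjusted p = 0.0904, edgeR), without CTRL replicate 1 (adjusted p = 0.164, edgeR) and by DESeq2 (adjusted p = 0.147).

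**Figure D2:**
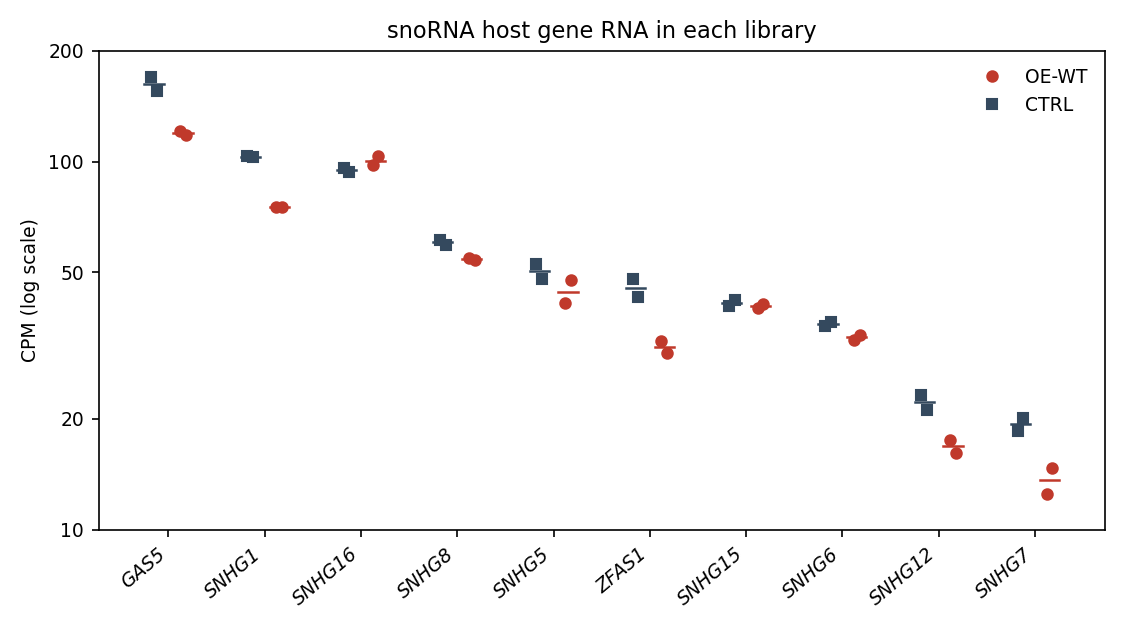
CPM of the 10 host genes on a log scale, with 1 point for each of the 2 OE-WT libraries (circles) and the 2 CTRL libraries (squares) and a bar at each group mean. The points of GAS5, SNHG1, ZFAS1, SNHG12 and SNHG7 separate with OE-WT below CTRL, those of SNHG15 overlap, and those of SNHG16 lie slightly higher in OE-WT.

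The other 5 hosts were not called. SNHG8 (ENSG00000269893, chromosome 4, 118278703 to 118285316, plus strand), host of SNORA24, had 54.8 and 54.2 CPM in OE-WT and 61.4 and 59.3 CPM in CTRL. The groups stood apart by a small margin, with a log2 fold change of -0.15 (SE 0.08, adjusted p = 0.174, edgeR). SNHG5 (ENSG00000203875, chromosome 6, 85650491 to 85678932, minus strand), host of SNORD50A and SNORD50B, had 41.2 and 47.6 CPM in OE-WT and 52.9 and 48.0 CPM in CTRL. OE-WT replicate 2 nearly reached CTRL replicate 2, and the log2 fold change was -0.18 (SE 0.09, adjusted p = 0.147, edgeR). Single libraries moved it: it was -0.30 without that OE-WT library (adjusted p = 0.0326, edgeR), -0.08 without OE-WT replicate 1 (adjusted p = 0.697) and -0.11 without CTRL replicate 1 (adjusted p = 0.566).

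SNHG6 (ENSG00000245910, chromosome 8, 66920561 to 66926398, minus strand), host of SNORD87, had 32.7 and 33.9 CPM in OE-WT and 35.8 and 36.7 CPM in CTRL. Its log2 fold change was -0.12 (SE 0.09, adjusted p = 0.372, edgeR), and it was called under none of the 11 alternatives. SNHG15 (ENSG00000232956, chromosome 7, 44983019 to 44986961, minus strand), host of SNORA9, had 40.1 and 41.0 CPM in OE-WT and 40.5 and 42.0 CPM in CTRL. The groups overlapped, with a log2 fold change of -0.02 (SE 0.08, adjusted p = 0.872, edgeR). SNHG16 (ENSG00000163597, chromosome 17, 76557727 to 76670985, plus strand), host of the SNORD1 group, had 97.8 and 103 CPM in OE-WT and 96.1 and 93.8 CPM in CTRL. It was the only one of the 10 with both OE-WT libraries above both CTRL libraries. The log2 fold change was 0.08 (SE 0.07, adjusted p = 0.423, edgeR), and it became -0.0077 when scaled by library size only.

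Summed, the 10 hosts took 0.0499% and 0.0527% of the OE-WT counts and 0.0675% and 0.0635% of the CTRL counts. Ribosomal protein genes took 5.39% and 5.66% of the OE-WT counts and 6.53% and 6.04% of the CTRL counts. Per 1000 ribosomal protein counts the host sum was 9.25 and 9.31 in OE-WT against 10.3 and 10.5 in CTRL, so the groups stayed apart on this scale by a smaller margin. On it, 6 hosts remained lower without overlap, namely GAS5, SNHG1, SNHG7, SNHG8, SNHG12 and ZFAS1, where 21.5% of all genes tested did. SNHG5 and SNHG6 overlapped, and SNHG16 was higher without overlap, as were 39.9% of genes tested, with 1.72 and 1.80 against 1.53 and 1.59 per 1000 ribosomal protein counts.

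Levels between genes were compared per kilobase of annotated exon, counting every exonic base of a gene in any of its transcripts. In CTRL cells GAS5 led with 34.4 and 31.5 CPM per kilobase, followed by SNHG1 with 26.0 and 25.9 and SNHG16 with 16.6 and 16.2. SNHG6, SNHG15 and SNHG8 came next, each above its follower in both libraries. ZFAS1 (5.76 and 5.14) and SNHG12 (5.45 and 4.95) could not be separated, nor could SNHG5 (4.19 and 3.81) and SNHG7 (3.80 and 4.11). In OE-WT cells the order was the same except that SNHG12 (4.11 and 3.80) stood before ZFAS1 (3.93 and 3.64), again with overlap. The highest CTRL level per kilobase was 8.33 times the lowest, and this ratio depends on the length used. With the canonical transcript alone, a choice made after seeing the data, it was 25.8. SNHG16, whose canonical transcript has 498 bases, then stood above GAS5 in OE-WT cells. The place of SNHG5 also depends on the length. With the canonical transcript it ranked 4 of the 10 in CTRL cells (40.2 and 36.5 CPM per kilobase), while SNHG7 stayed last (7.88 and 8.54).

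Few reads were assigned to the snoRNAs themselves. The count table has rows for 26 snoRNA entries annotated inside the hosts. None of them lies in GAS5, where RefSeq places 11 snoRNAs, so those of GAS5 were not examined. Some loci have more than 1 entry, such as SNORA16A and SNORA17B. Of the 26 entries, 22 had 0 counts in all 4 libraries, the highest count was 9, and none passed the filter. All 22 overlap an exon of at least 1 annotated host transcript, where reads may be shared with the host, as does 1 of the 4 with counts. A count of 0 for these 22 therefore cannot show whether the snoRNA was read. The 3 that lie in an intron of every transcript, SNORD99, SNORD1B and SNORD12C, all had counts. Their levels were not compared.

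Other noncoding snoRNA hosts were also lower where they were called. Of 24 listed, 23 were in the table and 18 passed the filter, with 4 called lower (22.2%, against 11.6% of all genes tested) and 0 higher. The median log2 fold change was -0.27, and 15 of the 18 were lower in OE-WT. At an unadjusted p below 0.05, edgeR gave 6 lower and 3 higher. DESeq2 called 2 lower and 0 higher, and the edgeR fit with a replicate block also called 2 lower. SNHG32 had 50.2 and 51.3 CPM in OE-WT and 84.6 and 79.8 CPM in CTRL, well apart, with a log2 fold change of -0.70 (SE 0.07, adjusted p = 9.9e-07, edgeR). SNHG11 had only 48 and 38 counts in OE-WT against 81 and 83 in CTRL, and its log2 fold change was -0.60 (SE 0.21, adjusted p = 0.0438, edgeR). SNHG29 had 337 and 353 CPM in OE-WT and 463 and 398 CPM in CTRL (log2 fold change -0.32, SE 0.07, adjusted p = 0.0031, edgeR). SNHG3 completed the 4, at -0.22 (adjusted p = 0.0272, edgeR). SNHG29 and SNHG3 were named after their values were seen.

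**Figure D3:**
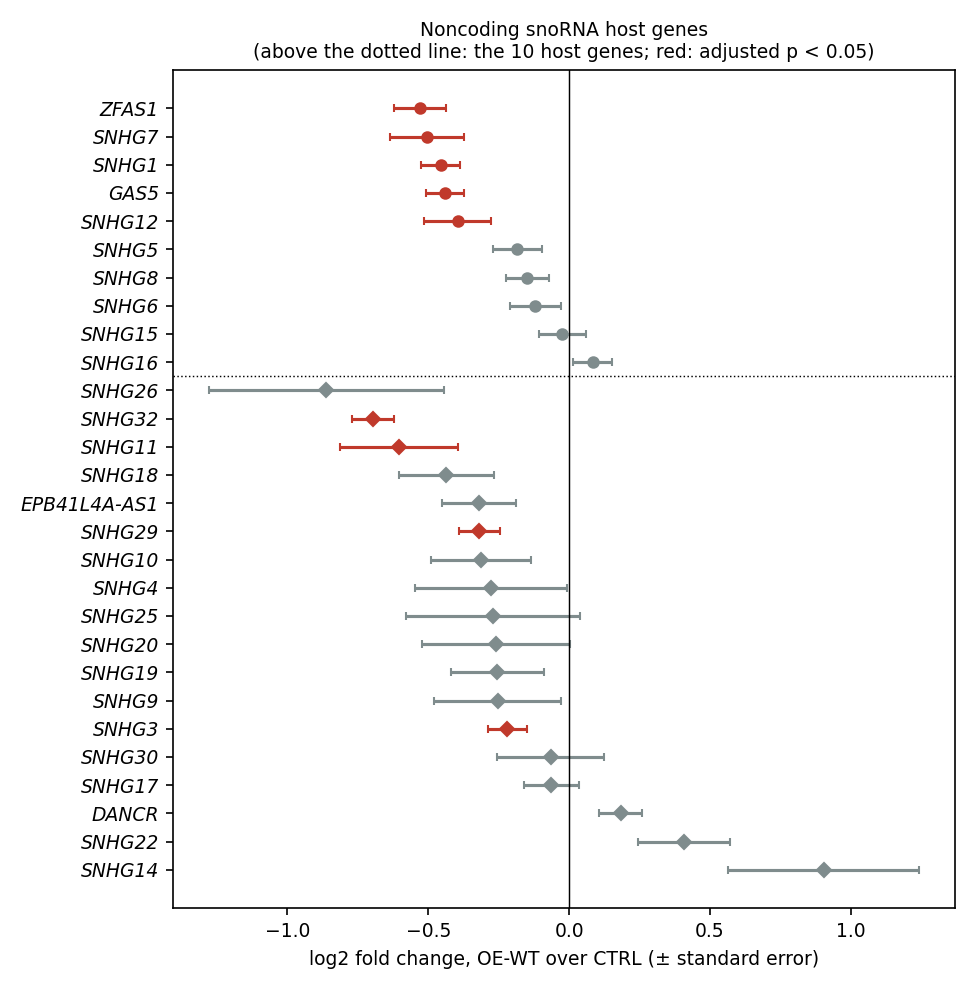
Log2 fold change (OE-WT over CTRL) with its standard error for the 10 host genes (circles, above the dotted line) and the 18 other noncoding snoRNA hosts that passed the filter (diamonds). Red marks an adjusted p below 0.05 from edgeR; 5 of the 10 and 4 of the 18 are red, all to the left of 0.

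Protein-coding genes with a snoRNA inside had calls in both directions. Of 253 such genes, 197 passed the filter, and the median log2 fold change was 0.03. Called higher were 33 (16.8%, against 9.44% of all genes tested) and called lower 19 (9.64%, against 11.6%), so the share called lower was near that of all genes. With library size as the only scaling these counts were 18 higher and 29 lower. RNF149, a ubiquitin ligase gene, had 370 and 407 counts in OE-WT against 795 and 780 in CTRL, a log2 fold change of -0.69 (SE 0.08, adjusted p = 2.7e-06, edgeR). FHIT was at -0.78 (adjusted p = 0.0354), and the largest increases were TTC6 at 1.27 (adjusted p = 0.0321) and TEX14 at 1.15 (adjusted p = 0.0162), the last 2 with at most 31 counts in any library (edgeR). The hosts that encode ribosomal proteins numbered 28, of which 4 were called lower and 0 higher, with a median of -0.07; RPL37 (-0.29, adjusted p = 0.0045) and RPL30 (-0.27, adjusted p = 0.0038) had the largest decreases (edgeR). Ribosomal protein genes with no snoRNA annotated inside in that release gave a median of -0.08, with 12 of 51 called lower and 0 higher. The release lacks the snoRNAs of GAS5, so genes of this list may hold snoRNAs that it does not annotate. In neither ribosomal protein list was a gene higher at an unadjusted p below 0.05 in edgeR or DESeq2. Over all 79 ribosomal protein genes, 16 were called lower, led by RPS21 (-0.36) and RPS7 (-0.30), but without CTRL replicate 1 the count was 3 and without OE-WT replicate 1 it was 9 (edgeR). That the noncoding hosts differ from the coding hosts was not tested.

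Among genes for the proteins that bind, mature or degrade these RNAs, those called by edgeR were higher in OE-WT, but most were not called. Of 17 snoRNP (snoRNA-protein complex) core proteins and assembly factors, 5 were called higher (29.4%, against 9.44% of all genes tested) and 0 lower. Their median log2 fold change was 0.18. DESeq2 called 3 higher and 0 lower, and no gene of the list was lower at an unadjusted p below 0.05 in either tool. NOP56, a box C/D core protein whose own gene hosts snoRNAs, had 279 and 275 CPM in OE-WT and 208 and 216 CPM in CTRL (log2 fold change 0.39, SE 0.06, adjusted p = 0.00016, edgeR). NOP58, its partner in the box C/D complex, had 17.5 and 14.0 CPM against 9.87 and 12.0 CPM (0.52, SE 0.15, adjusted p = 0.0178, edgeR). DKC1, the pseudouridine synthase of the H/ACA complex, had 74.1 and 63.9 CPM in OE-WT and 42.2 and 51.4 CPM in CTRL. Its log2 fold change was 0.56 (SE 0.09, adjusted p = 0.00018, edgeR), with no overlap. NAF1, an H/ACA assembly factor, was at 0.57 (adjusted p = 0.0042) and RUVBL2, a helicase of the assembly machinery, at 0.19 (adjusted p = 0.0436, edgeR). The remaining 12 were not called.

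Of 17 nonsense-mediated decay factors, 6 were called higher (35.3%, against 9.44% of all genes tested) and 0 lower, with a median log2 fold change of 0.15. UPF2, a core factor with 28 and 37 counts in OE-WT against 25 and 20 in CTRL, was at 0.85 (adjusted p = 0.042, edgeR), and the kinase SMG1 was at 0.53 (adjusted p = 0.0207, edgeR). This count depended on the settings: DESeq2 called 0 in either direction, and library size alone gave 1 higher in edgeR. At an unadjusted p below 0.05, edgeR gave 7 higher and 5 lower, and DESeq2 gave 5 higher and 0 lower. By log2 fold change alone, 11 of the 17 were higher in OE-WT and 6 lower. UPF1, named after its values were seen, was not called, at -0.19 (adjusted p = 0.0631, edgeR). It had 704 and 669 counts in OE-WT against 1007 and 961 in CTRL, and in CPM its OE-WT libraries lay below those of CTRL. Among 6 debranching and trimming enzymes, 1 was called higher (16.7%, against 9.44%), the exonuclease XRN2 (0.33, adjusted p = 0.0073, edgeR), which DESeq2 did not call. Among 6 regulators of TOP mRNAs, 2 were called higher (33.3%, against 9.44%), the translational repressors EIF4EBP2 (0.57, adjusted p = 2.8e-06) and LARP1 (0.20, adjusted p = 0.0356, edgeR).

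**Figure D4:**
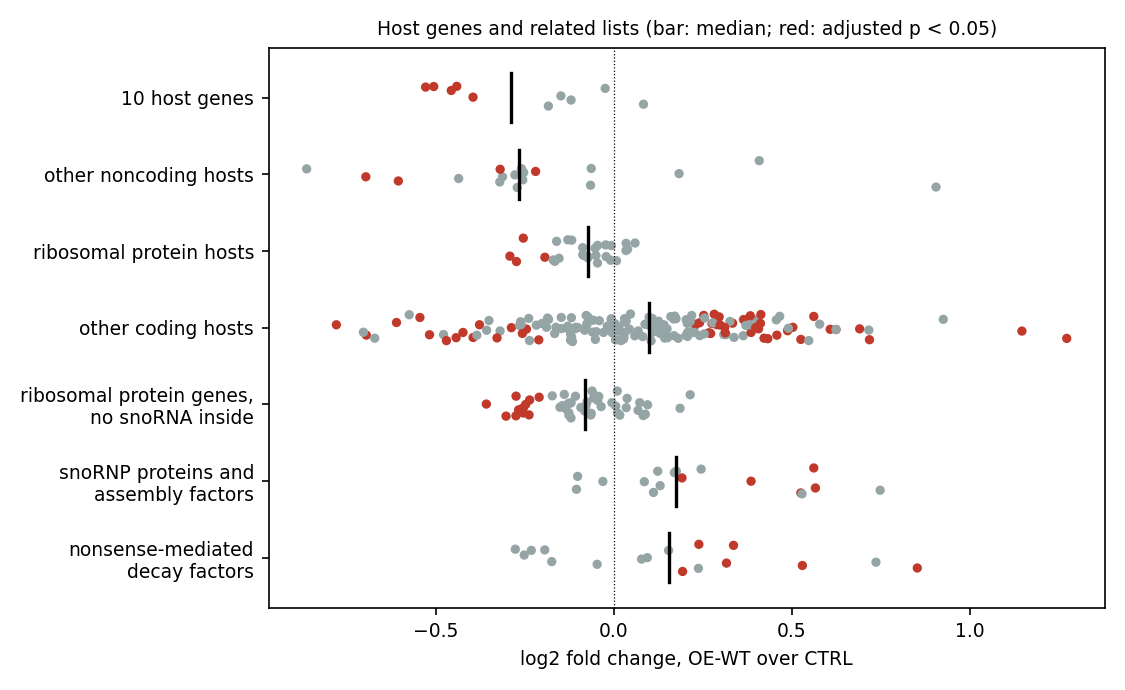
Log2 fold change (OE-WT over CTRL) of each gene that passed the filter, by list, with a bar at the list's median and red for an adjusted p below 0.05 from edgeR. The medians of the 10 hosts and of the other noncoding hosts are -0.29 and -0.27, those of the ribosomal protein lists are -0.07 and -0.08, and that of the snoRNP proteins and assembly factors is 0.18.

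RNA was extracted from cleared lysates of cells washed with cycloheximide, an inhibitor of translation, in both groups. Nuclear-retained long noncoding RNAs summed to 153 and 154 CPM in OE-WT and 122 and 138 CPM in CTRL. Of these 4 genes, 2 were called higher (50%, against 9.44% of all genes tested), TUG1 (0.42, adjusted p = 0.0111) and MALAT1 (0.40, adjusted p = 0.0031, edgeR). NEAT1 (0.09, adjusted p = 0.440) and KCNQ1OT1 (0.21, adjusted p = 0.602, edgeR) were not called, and their libraries overlapped. These 2 were named after their values were seen. RNAs without poly(A) tails summed to 696 and 646 CPM in OE-WT and 322 and 283 CPM in CTRL. Of the 3 of these that passed the filter, RN7SL2, the RNA of the signal recognition particle, was called higher, at 1.27 (adjusted p = 3.0e-10, edgeR), and 5 of the 8 in the table had 0 counts in every library. RN7SL2 made up most of the sum of RNAs without poly(A) tails, at 641 and 603 CPM in OE-WT and 280 and 235 CPM in CTRL. SNORD3A (0.14, adjusted p = 0.348) and RNU4-2 (-0.24, adjusted p = 0.603, edgeR) were not called, and their libraries overlapped. Both were named after their values were seen. The nuclear-retained sum and RN7SL2 moved with the groups, in the opposite direction to the hosts. Their part in the host differences was not tested. Among epithelial markers, KRT20 (-1.52) and CDH1 (-0.29) were called lower and KRT8 (0.25) and KRT18 (0.30) higher. Among the 4 tested markers of other cell types, VWF (-1.65) was called lower, while PTPRC had 0 or 1 count per library and PECAM1 0 to 3, both named after their values were seen.

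Genes that overlap a host or start within 2000 bases of its start were read beside it, since overlapping reads cannot be assigned without strand and the strand setting of the counting is not given in the sources used here. Of 19 in the table, 14 were tested, 2 were called lower and 0 higher, where 11.6% and 9.44% of all genes tested were. A count this small describes little about neighbours of the hosts. SLC3A2, an amino acid transporter subunit, starts 51 bases from SNHG1 on the opposite strand and does not overlap it. It had 1345 and 1380 CPM in OE-WT and 1815 and 1909 CPM in CTRL, and its log2 fold change of -0.45 (SE 0.07, adjusted p = 6.1e-05, edgeR) lay beside that of SNHG1. PRSS12, antisense to SNHG8 with 2487 shared exonic bases, was at -0.84 (adjusted p = 0.0391, edgeR) on at most 53 counts. ZNFX1, antisense at the start of ZFAS1 with 249 shared exonic bases, was at -0.09 (adjusted p = 0.552, edgeR). Over GAS5, the antisense genes ZBTB37 and GAS5-AS1 were at 0.01 and -0.36, neither of them called. ENSG00000284526, antisense over 1648 exonic bases of SNHG16 and itself at 465 to 562 counts, was at 0.17 (adjusted p = 0.156, edgeR), so the SNHG16 value is uncertain if strand was not used. SNHG5 shares 943 exonic bases with ENSG00000271793 and 715 with PKMP3 on its own strand, where strand cannot assign reads. These 2 genes had 0 or 1 count per library. The effect of this overlap on the SNHG5 counts was not tested.

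Among the genes outside the 10 whose levels over the 4 libraries lay closest to the mean profile of the hosts were DCBLD1 and RPL30. The measure was the Euclidean distance of centred log2 CPM, which was 0.0171 and 0.0181 among 10205 candidates with a mean of at least 50 counts. Within the hosts, SNHG8 lay closest to their mean (0.126) and SNHG16 farthest from it (0.352). With 4 libraries such distances describe little beyond the difference between the groups.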

How the data were processed

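Poly(A)-selected RNA of DLD1 cells was sequenced with a strand-specific kit, per the labels; the methods describe removal of ribosomal RNA and 3 biological replicates, whereas the labels list 2 per group, each in 2 lanes. The deposited table has 1 column of raw counts per library and 0 other columns of per-sample values. According to the methods, the authors trimmed reads with Cutadapt, aligned them with HISAT2 and counted them with HTSeq, while the submitters' processing notes name HISAT2 2.2.1, featureCounts 2.0.0, DESeq2 1.34.0 and GRCh38. The annotation release and the strand setting of the counting are not given in the sources used here, and strand decides reads shared with antisense genes.

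Symbols and coordinates came from GENCODE release 44, which named 57532 of 58302 identifiers, and snoRNA positions inside the 10 hosts from RefSeq. Protein-coding hosts were found from the snoRNA genes of GENCODE release 44, which has none in GAS5. Counts were fitted in edgeR 4.0.16 (R 4.3.3) over the whole table with its filter by group (minimum count 10), TMM normalization and the quasi-likelihood test, and p-values of the 14133 genes were adjusted by Benjamini-Hochberg. CPM use TMM-scaled library sizes, and errors are standard errors of log2 fold changes. An exact two-sided permutation test of 2 against 2 cannot give a p below 0.333, and p-values measure only the spread between these libraries. Samples sharing a replicate number did not deviate together (r = -0.0851 over genes, which are not replicates). Results were recomputed with DESeq2 1.42.0, with RLE size factors or library size only, with other count filters, with the replicate number as a block, without each library, as the share of ribosomal protein counts, with other transcript lengths and, chosen after seeing the data, after removal of a GC trend (lowess, span 0.3) and with the canonical transcript length. The fit was also run on simulated counts that had the same fixed dispersion for all genes. The outcome is not given here, and it does not measure how reliable the calls from these libraries are.

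The members and lists were chosen with earlier results of these data known. Named are the 10 hosts, the 2 largest increases and decreases among called genes of each list, TRMT6 and TRMT61A, genes overlapping a host or starting within 2000 bases of its start, and the 3 nearest profiles; any other gene is said to be chosen after its values were seen. Some genes that this rule names are not reported here. Figures were drawn with matplotlib 3.10.9. Ribosome profiling and tRNA sequencing were not analysed here.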

Additional observations from a re-analysis of the deposited data

How the results depend on the processing

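Of the log2 fold changes of the 10 hosts over the 11 alternatives with a test, 98 kept their direction and their side of the threshold, 4 became called, 6 lost the call and 2 changed sign, and the cause was not tested. As a share of ribosomal protein counts, which has no test, 9 kept their direction and 1 changed sign. The sign changes were SNHG15, at 0.0029 without CTRL replicate 2 (-0.0507 to 0.0029 with each library left out) and 0.068 as a share of ribosomal protein counts, and SNHG16, at -0.0077 with library size only. SNHG8 became called with library size only (adjusted p = 0.0416) and with the GC trend removed (adjusted p = 0.0172), and SNHG5 with library size only (adjusted p = 0.0303), all from edgeR. Library size only moved the median log2 fold change of all genes by -0.09 and the share of calls that were higher from 44.8% to 23.0%.

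Hosts called lower numbered 3 by DESeq2, 4 to 5 with a library left out, and 5 with the replicate block, which also left 2658 of 2976 calls over all genes. The block gave 2 in place of 4 for the other noncoding hosts and 4 in place of 6 for decay factors, and it moved the other counts given here by less than 1.5 times. Where a library was left out, the lone library of its group was assumed to vary like the other group.

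DESeq2 gave 1377 calls over all genes, 21 in place of 34 over the 8 related lists, 26 over the coding hosts (15 higher, 11 lower), 2 for the other noncoding hosts, 3 for snoRNP proteins and assembly factors and 0 for decay factors. When all genes with a count were tested, these were 3 for snoRNP proteins and assembly factors, 0 for decay factors and 20 higher for coding hosts. Library size only gave 1 decay factor and, for coding hosts, 18 higher and 29 lower, and the GC correction gave 3 decay factors. With a library left out, the ranges were 1903 to 2852 calls over all genes, 10 to 32 over the related lists, and 25 to 55 over the coding hosts (13 to 36 higher, 12 to 20 lower). They were 2 to 4 for other noncoding hosts, 3 to 5 for snoRNP proteins and assembly factors, 0 to 3 for decay factors and 3 to 18 for ribosomal protein genes. The lowest of these counts all came without CTRL replicate 1, some tied with the count without OE-WT replicate 1. The ratio of the highest to the lowest level per kilobase, 8.33, was 6.29 with the longest transcript and 25.8 with the canonical one.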
